A study of Homo sapiens with 12 samples.

Results

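The miR-548 family was examined in small-RNA libraries from human pancreatic ductal adenocarcinoma (PDAC) cells after knockdown of MYEOV. Its members were all miRNAs whose listed name begins with miR-548. There were 67 of them among the 1733 miRNAs listed in at least 1 library, or 3.87%. The libraries came from 2 established PDAC cell lines, AsPC-1, which was derived from ascites, and PANC-1, which came from a primary pancreatic tumor. In each line, 3 libraries of cells transfected with siRNA against MYEOV, a candidate proto-oncogene first described in myeloma, were set beside 3 control libraries. The labels call the controls wild type and untreated, whereas the treatment protocol and the methods name a negative-control siRNA. RNA was taken 48 h after transfection by the labels, and the methods give a shorter time. Both siRNAs against MYEOV are named, and the labels do not say which was used in which library, so the numbers 1 to 3 of the knockdown libraries were used as replicate numbers only. AsPC-1 was grown in RPMI 1640 and PANC-1 in DMEM, both with fetal bovine serum, so line and medium cannot be told apart. MYEOV itself is not a miRNA, and its own knockdown was not measured in these libraries. Nothing in the labels says that replicate libraries came from separate cultures, so the p-values measure the spread between these libraries.

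A miRNA is cut from a hairpin in a longer transcript. The nuclear enzyme Drosha frees the hairpin, and Dicer trims it to a short duplex, of which either arm, named 5p or 3p, can be loaded into an Argonaute protein. The loaded strand pairs with messenger RNAs mainly through its seed, the bases from position 2 to 8, and lowers their translation and stability. The miR-548 family is found in primates only. Its hairpins stem from MADE1, a short DNA transposon of the mariner type that consists of little more than its inverted terminal repeats. A transcript through such an element folds back on itself, and copies lie scattered over the chromosomes, many of them inside introns. Some members are therefore so alike that a read can fit more than 1 of them, which poses a counting problem.

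Mature sequences were taken from RefSeq (GRCh38.p14), which held 45 of the 67 members under the same name, including 17 of the 28 that were well counted. A member was called well counted where it had at least 10 reads in at least 3 libraries of a line. The sequences of 10 members with most of the matched reads, or with a result in a comparison, are printed here to show where they are alike and where they differ, with the seed in capitals.
miR-548k: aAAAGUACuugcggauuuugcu
miR-548n: cAAAAGUAauuguggauuuugu
miR-548ab: aAAAGUAAuuguggauuuugcu
miR-548b-5p: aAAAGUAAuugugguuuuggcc
miR-548j-5p: aAAAGUAAuugcggucuuuggu
miR-548o-3p: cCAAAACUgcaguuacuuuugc
miR-548ah-3p: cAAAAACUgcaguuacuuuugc
miR-548am-3p: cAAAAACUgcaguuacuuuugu
miR-548u: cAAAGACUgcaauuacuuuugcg
miR-548f-3p: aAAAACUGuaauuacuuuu

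The list shows 2 kinds of sequence. MiR-548k, miR-548n, miR-548ab, miR-548b-5p and miR-548j-5p hold the letters AAAGUA near their 5′ end. MiR-548o-3p, miR-548ah-3p, miR-548am-3p, miR-548u and miR-548f-3p hold the reverse complement of these letters, UACUUU, near their 3′ end. The same is seen within a single hairpin, that of miR-548j, whose arms are printed again with these letters in capitals. The 5p arm carries AAAGUA and the 3p arm carries its reverse complement.
miR-548j-5p: aAAAGUAauugcggucuuuggu
miR-548j-3p: caaaaacugcauUACUUUugc

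Of the 45 matched members, 17 hold AAAGUA, 16 hold UACUUU, 33 hold either and 0 hold both, where each run was searched on the mature strand as written. Among the other 2315 human mature sequences of the same table, 10 (0.432%) hold AAAGUA and 12 (0.518%) hold UACUUU. Of the 13 matched members with 5p in their name, 10 hold AAAGUA, and of the 17 with 3p 0 do. Of the 17 with 3p, 13 hold UACUUU, and of the 13 with 5p 0 do. Members without an arm in their name were assigned to an arm by these letters, so miR-548k, miR-548n, miR-548ab and miR-548l were read as 5p, and miR-548u and miR-548p as 3p. The matched members are poor in G and C, with a median GC content of 35% (15.8% to 54.5%) against 52.2% in the other sequences, and are 18 to 23 bases long.

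The family is not uniform in its seed. The 45 sequences hold 25 distinct seeds. The most common, AAAGUAA, is shared by 9 members, among them miR-548ab, miR-548b-5p and miR-548j-5p, with 1462 reads over all libraries. The next, AAAAACU, is shared by 7 members, among them miR-548ah-3p, miR-548am-3p, miR-548aq-3p and miR-548j-3p, with 2126 reads. The matched members with most reads stand outside both groups. Members without a RefSeq sequence under their name, such as miR-548e-3p (4242 reads) and miR-548d-5p (1772 reads), enter none of these counts. MiR-548o-3p (12394 reads) is the only matched member with the seed CAAAACU, and miR-548n (2179 reads) the only one with AAAAGUA. MiR-548k (10056 reads) shares AAAGUAC with miR-548av-5p, which had 7 reads.

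Of the 990 pairs of matched members, 25 share an identical run of at least 18 bases, the shortest read the authors kept, and in 6 of these pairs both members were well counted. Of the pairs with both members well counted, 3 of equal length differ in a single base, which is in capitals in the lines that follow, with positions counted from 1 at the 5′ end. MiR-548o-3p and miR-548ah-3p differ by C2A, which lies in the seed. MiR-548ah-3p and miR-548am-3p differ by C22U, which is the last base, and share their seed. MiR-548ah-3p and miR-548aq-3p differ by G12A.
miR-548o-3p: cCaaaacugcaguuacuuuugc
miR-548ah-3p: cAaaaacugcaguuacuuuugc
miR-548ah-3p: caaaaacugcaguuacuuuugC
miR-548am-3p: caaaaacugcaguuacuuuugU
miR-548ah-3p: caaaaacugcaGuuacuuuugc
miR-548aq-3p: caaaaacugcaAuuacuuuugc

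Some members also had the same counts. In 4 pairs, both members had exactly the same count in each of the 12 libraries, namely miR-548aa and miR-548t-3p (199 reads each), miR-548c-5p and miR-548o-5p (51 reads each), miR-548h-3p and miR-548z (16 reads each), and miR-548aj-5p and miR-548ar-5p (6 reads each). Only miR-548aa and miR-548t-3p were well counted. The count of miR-548am-5p (48 reads) departed from that of miR-548c-5p and miR-548o-5p in 3 libraries. Members with the same counts cannot be told apart. The counts of tested members hold miR-548aa and miR-548t-3p as 2 members, although they are 1 measurement. RefSeq sequences for both members were at hand for miR-548aj-5p and miR-548ar-5p only, and these differ in their seeds. MiR-548aj-5p, miR-548g-5p and miR-548x-5p have the same mature sequence in RefSeq and were listed with 6, 3 and 2 reads. MiR-548o-3p, miR-548ah-3p and miR-548am-3p had 12394, 964 and 714 reads. How the authors' counting divided reads that fit several members was not tested, and values of members with a close relative are uncertain by that much.

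The members lie on many chromosomes. The positions here are from GRCh37, the build of the authors' mapping, and its GENCODE annotation. MIR548K, the hairpin gene of miR-548k, lies on chromosome 11 from 70130061 to 70130176 (plus strand) in an intron of PPFIA1. It is 947566 bp from MYEOV (chromosome 11, 69061605 to 69182494, plus strand), the gene targeted by the siRNA. MIR548N (chromosome 7, 34980372 to 34980446, minus strand) lies in an intron of DPY19L1, MIR548AH (chromosome 4, 77496704 to 77496779, plus strand) in an intron of SHROOM3, and MIR548U (chromosome 6, 57254930 to 57255010, plus strand) in an intron of PRIM2. MIR548E (chromosome 10, 112748684 to 112748771, plus strand) lies in an intron of SHOC2. MIR548AB (chromosome 3, 103242877 to 103242960, minus strand) lies in no annotated gene. Some mature miRNAs have several hairpins. MiR-548o-3p comes from 2, MIR548O on chromosome 7 (102046189 to 102046302, minus strand), on the opposite strand within PRKRIP1, and MIR548O2 on chromosome 20 (37145206 to 37145275, plus strand), in an intron of RALGAPB. MiR-548f-3p comes from 5, on chromosomes 2, 5, 7, 10 and X, with 4 of them in introns of ERBB4, TMEM232, PCDH15 and DMD on the same strand. The counts do not say from which copy a read came.

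The AsPC-1 libraries held 5587106 to 7311783 counted reads and the PANC-1 libraries 3805084 to 5049361, and levels are given as counts per 1000000 counted reads (CPM). The limit of detection was set at 3 reads, or 0.410 to 0.788 CPM, and covers counting error only, because the reads were made by PCR without molecular identifiers. Replicate libraries differed from each other throughout. Their chi-square statistic per degree of freedom ran from 8.13 to 224, and AsPC-1 control replicate 1 stood apart, at 224 and 183 from the other AsPC-1 controls, which were 22.1 from each other. As a check on the lines, the summed CPM of 5 epithelial markers of the miR-200 family ran from 48678 to 52667 for AsPC-1 libraries, against 212 to 276 for PANC-1 libraries. That of 3 acinar markers was at most 0.509 in any library, and that of miR-375 and miR-7-5p, known from endocrine cells, ran from 42430 to 55891 for AsPC-1, against 15127 to 19196 for PANC-1. Nearly all of this was miR-7-5p, while miR-375 had 4 to 13 reads per AsPC-1 library and 22 to 52 per PANC-1 library. The blood, liver and muscle lists summed to at most 8.82, 10.8 and 1.54 CPM in an AsPC-1 library. In PANC-1 libraries the highest sums were 2.86, 5.27 and 177 CPM, the last almost all from miR-1-3p, with 521 to 851 reads per library, while miR-206 was at 0 in both lines and the blood marker miR-223-3p at 0 in PANC-1.

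Of the 67 members, 28 (41.8%) were well counted in either line, near the 37.4% of all 1733 miRNAs. Each library listed 44 to 55 members, and 29 were listed in all 12 libraries. Over its 6 libraries, AsPC-1 listed 66 members and PANC-1 listed 61. By contrast, 19 members never exceeded 3 reads in a library, and 4 were listed in a single library. Well-counted members numbered 25 for AsPC-1 libraries and 24 for PANC-1 libraries, with 21 in both lines. The other 39 members together held 1.78% of the reads of the family. In all, the family had 43391 of 64194450 counted reads, or 0.0676%. MiR-548o-3p and miR-548k held 51.7% of these, and with miR-548e-3p 61.5%.

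In AsPC-1, miR-548k was the most abundant member, with a mean of 154 CPM over the 6 libraries (139 to 167), and ranked 146 among the 1455 miRNAs listed in that line. MiR-548o-3p followed with 152 CPM (134 to 197), and the ranges of both overlapped. The next members were miR-548e-3p at 71.2 CPM, miR-548n at 44.8 CPM and miR-548d-5p at 28.9 CPM, and the ranges of these 3 did not overlap with each other. In PANC-1, miR-548o-3p led with 251 CPM (218 to 294) and ranked 156 among 1521 miRNAs. MiR-548k had 159 CPM (139 to 181), below each value of miR-548o-3p in that line. MiR-548e-3p had 57.7 CPM, miR-548f-3p 40.5 CPM and miR-548u 34.6 CPM, and the ranges of the latter 2 overlapped.

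**Figure D1:**
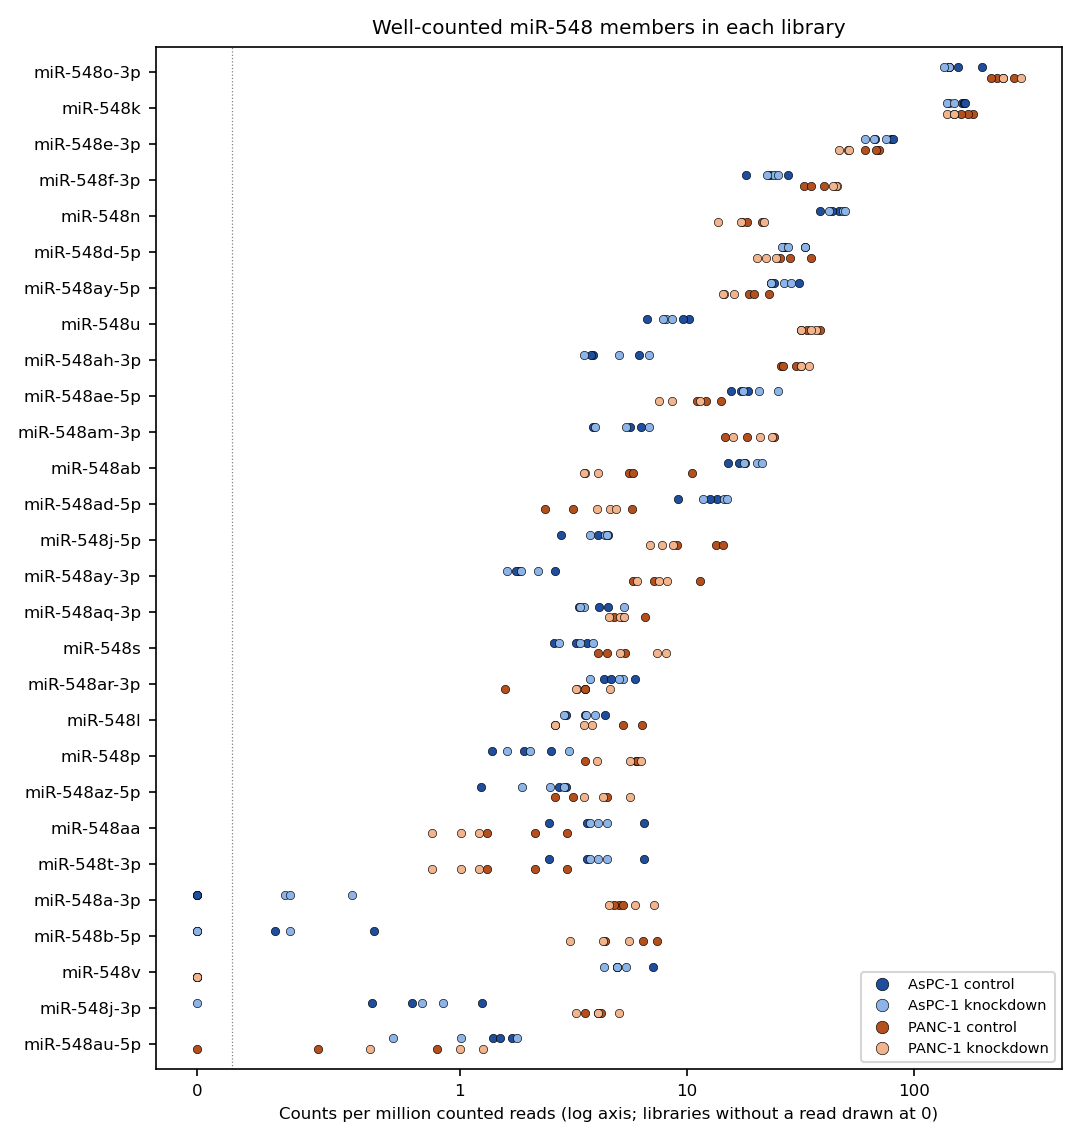
Levels in CPM (log axis) of the 28 well-counted miR-548 members, 1 point per library, with the AsPC-1 libraries drawn above the PANC-1 libraries of each member and libraries without a read drawn at 0. MiR-548o-3p and miR-548k lie above 100 CPM in all 12 libraries, and miR-548v lies at 0 in the 6 PANC-1 libraries.

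As a share of all counted reads, the family was smaller in AsPC-1 than in PANC-1. Its total was 636, 635 and 663 CPM in the AsPC-1 controls and 585, 604 and 614 CPM in the AsPC-1 knockdown libraries. In PANC-1, it was 773, 734 and 798 CPM in the controls and 719, 718 and 767 CPM in the knockdown libraries. The lines did not overlap. In AsPC-1 each knockdown library lay below each control, and in PANC-1 the groups overlapped. The mean total was 645 ± 16.1 and 601 ± 14.7 CPM (SD, n = 3) for AsPC-1, a ratio of knockdown to control of 0.932, and 768 ± 32.3 and 735 ± 27.9 CPM (SD, n = 3) in PANC-1, a ratio of 0.957. PANC-1 controls stood at 1.19 times the AsPC-1 controls. Without AsPC-1 control replicate 1, the mean of the AsPC-1 controls was 649 CPM. The libraries are of bulk cultures, in which fewer cells with a miRNA and less of it per cell cannot be told apart.

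The order of the lines rests on the scaling. Scaling by the trimmed mean of M-values (TMM), which sets the bulk of miRNAs equal between libraries, gave totals of 756, 663, 644 and 680 CPM for the AsPC-1 control, AsPC-1 knockdown, PANC-1 control and PANC-1 knockdown groups. The ratio of the lines then was 0.853, and that of knockdown to control in PANC-1 was 1.06, so both changed direction, while that in AsPC-1 stayed below 1 at 0.877. These totals used TMM factors taken over all 12 libraries (0.830 to 1.24), not those of each line. Fitting all 12 libraries together moved the AsPC-1 knockdown LFC of all miRNAs by a median of -0.10 from the fit of that line alone. The ratio of 0.877 thus holds for these factors only. The total also leaned on 1 member. Without miR-548o-3p, the ratio of PANC-1 to AsPC-1 controls was 1.10, and that of knockdown to control was 0.962 for AsPC-1 and 0.899 for PANC-1. The groups then overlapped in AsPC-1 (466 to 494 CPM in controls, 443 to 479 CPM after knockdown) and did not in PANC-1 (516 to 542 CPM in controls, 473 to 475 CPM after knockdown). No test was run on the total.

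**Figure D2:**
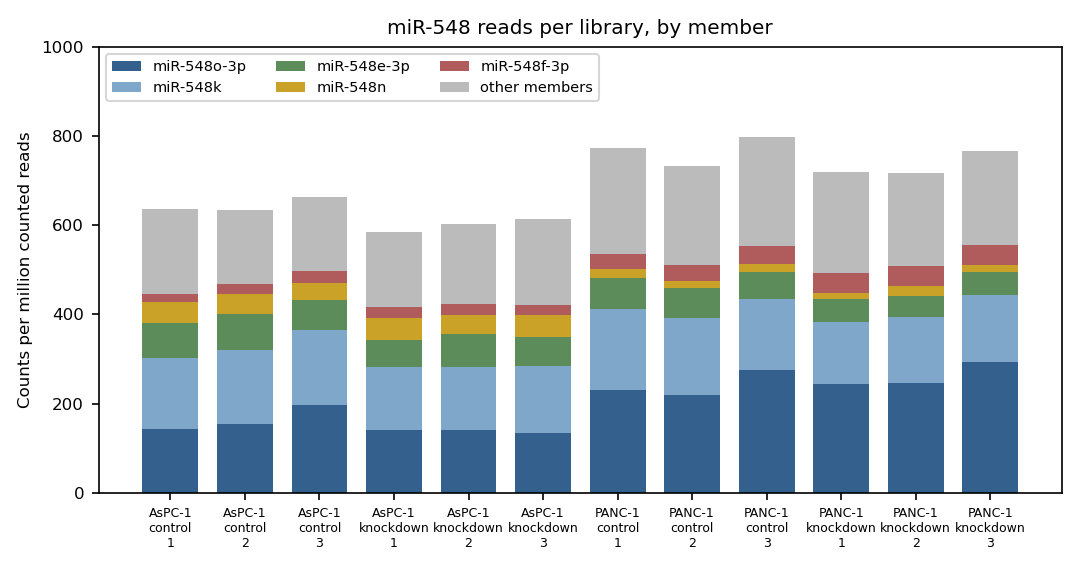
Reads of the miR-548 family per library in CPM, stacked by member, for the 3 control and 3 knockdown libraries of each line. The AsPC-1 bars reach 585 to 663 CPM and the PANC-1 bars 718 to 798 CPM, and miR-548o-3p and miR-548k hold 24.6% and 24.8% of the pooled reads of the family in AsPC-1 and 33.4% and 21.2% in PANC-1.

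Hairpins with reads from both arms numbered 20, of which 13 had at least 1 well-counted arm and 2 had both. In 6 of the 20, over 90% of the reads came from the same arm in both lines. In all reads of a line, the 5p arm of miR-548d took 97.4% (AsPC-1) and 96.3% (PANC-1), whereas that of miR-548e took 0.436% and 0.530%, and that of miR-548o 0.658% and 0.184%. The 5p arm of miR-548ay took 92.2% to 94.7% of the reads of the hairpin in the AsPC-1 libraries and 65.7% to 77.3% in the PANC-1 libraries, and the lines did not overlap. For miR-548j, the 5p arm took 76.3% to 100% in the AsPC-1 libraries, which overlapped with the 60.8% to 79.1% of the PANC-1 libraries. Only these hairpins had both arms well counted in at least 1 line, and miR-548j-3p was well counted in PANC-1 only. The AsPC-1 shares of miR-548j rest on 0 to 9 reads of its 3p arm per library. Arm shares were compared after the values were seen and were not tested.

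The control libraries were compared to ask which members differ between the lines. Against AsPC-1, 9 members were higher and 11 lower in PANC-1, out of 27 tested (edgeR's quasi-likelihood test on TMM-scaled counts, Benjamini-Hochberg adjusted p under 0.05 over all 627 miRNAs tested). This is 74.1% of the members, whereas 82.8% of all miRNAs tested passed the threshold, 46.7% higher and 36.0% lower, so the share of members was near the background. The 9 hold miR-548a-3p, miR-548b-5p and miR-548j-3p, and the 11 hold miR-548v, miR-548aa and miR-548t-3p. These were well counted only in the line where they were higher, so their calls were in part set by the filter on low counts. The median absolute log2 fold change (LFC) was 1.24 for the members and 1.49 for all. Control libraries of the lines did not overlap for 21 members, against 82.1% of all miRNAs, and 20 members had an unadjusted p under 0.05, against 84.2%. With total counts as the scale, which moved the LFC of all miRNAs by a median of 0.34, 11 members were higher and 8 lower. Without AsPC-1 control replicate 1, 9 were higher and 11 lower. With identical rows collapsed, 9 of 26 were higher and 10 lower.

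Among the 3p members, several were higher in PANC-1. MiR-548ah-3p had 4.25, 4.31 and 6.99 TMM-scaled CPM in the AsPC-1 controls and 22.2, 23.4 and 27.95 CPM in the PANC-1 controls, an LFC of 2.23 (SE 0.22, adjusted p = 2.32e-07, edgeR). MiR-548u had 7.31, 11.6 and 10.9 CPM for AsPC-1 against 27.1, 30.1 and 35.5 CPM for PANC-1, an LFC of 1.63 (SE 0.20, adjusted p = 2.09e-06, edgeR). MiR-548am-3p had 4.25, 6.38 and 7.15 CPM in AsPC-1 and 12.6, 16.4 and 22.4 CPM in PANC-1, an LFC of 1.51 (SE 0.25, adjusted p = 6.51e-05, edgeR). For these 3 members, each PANC-1 control lay above each AsPC-1 control. MiR-548ay-3p (LFC 1.63) and miR-548p (1.06) were also higher (adjusted p = 0.000165 and 0.00780, edgeR). MiR-548j-3p had 4, 9 and 3 reads in the AsPC-1 controls and 17, 18 and 16 in the PANC-1 controls. It passed the filter on low counts only through PANC-1, so its call was in part set by that filter, and no LFC is given for it. MiR-548o-3p, a single base from miR-548ah-3p, had 156, 177 and 224 CPM in AsPC-1 and 198, 194 and 254 CPM in PANC-1. With TMM scaling, the lines overlapped for miR-548o-3p, and its LFC of 0.21 (SE 0.14) did not pass the test (adjusted p = 0.181, edgeR). As plain CPM of counted reads they did not overlap, at 134 to 197 over the 6 AsPC-1 libraries and 218 to 294 over the 6 PANC-1 libraries.

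Among the 11 members read as 5p, 6 were lower in PANC-1 with TMM scaling and 4 with total counts. MiR-548n had 51.0, 49.3 and 43.8 CPM in the AsPC-1 controls and 18.4, 15.5 and 17.0 CPM in the PANC-1 controls, an LFC of -1.50 (SE 0.15, adjusted p = 2.08e-07, edgeR). MiR-548ab, which shares a run of 20 bases with miR-548n, had 18.5, 20.4 and 17.2 CPM in AsPC-1 and 8.97, 4.93 and 5.35 CPM in PANC-1, an LFC of -1.54 (SE 0.23, adjusted p = 1.82e-05, edgeR). MiR-548ad-5p had 15.0, 10.4 and 14.3 CPM in AsPC-1 and 4.89, 2.82 and 2.19 CPM in PANC-1, an LFC of -1.98 (SE 0.28, adjusted p = 1.17e-05, edgeR). Each PANC-1 control lay below each AsPC-1 control for these members. MiR-548ae-5p (LFC -0.81, adjusted p = 0.000577, edgeR), miR-548ay-5p (-0.69, 0.00123) and miR-548k (-0.28, 0.0151) were lower by less. Under total counts as the scale, the LFC of miR-548ay-5p was -0.35 (adjusted p = 0.0761, edgeR) and that of miR-548k changed direction, to 0.055 (adjusted p = 0.656, edgeR). MiR-548ay thus differed by arm, with its 5p arm lower and its 3p arm higher in PANC-1. MiR-548j-5p was higher there, by an LFC of 1.35 (adjusted p = 0.000287, edgeR). The arms of miR-548j are not compared, because miR-548j-3p was well counted in PANC-1 only.

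A few members had hardly a read in 1 of the lines. MiR-548v had 46, 35 and 36 reads in the AsPC-1 controls and 32, 29 and 24 in the AsPC-1 knockdown libraries, and 0 in all 6 PANC-1 libraries. Its mean of 5.65 ± 1.27 CPM (SD, n = 3) in the AsPC-1 controls was at least 7.16-fold higher than in the PANC-1 controls, with the limit of 3 reads taken in the smallest PANC-1 control library. MiR-548a-3p was the reverse, with 21, 24 and 20 reads in the PANC-1 controls, 0 in the AsPC-1 controls and 4 in all 6 AsPC-1 libraries. Its mean of 5.00 ± 0.252 CPM (SD, n = 3) in the PANC-1 controls was at least 10.8-fold higher than in the AsPC-1 controls, with the limit of 3 reads taken in the smallest AsPC-1 control library. MiR-548b-5p had 27, 22 and 28 reads in the PANC-1 controls against 1, 3 and 0 in AsPC-1. These AsPC-1 counts are at or under the limit of 3 reads. MiR-548v, miR-548a-3p and miR-548b-5p passed the filter on low counts only through the line where they had reads, so their calls were largely set by that filter, and no LFC is given for them.

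The arms together split as follows. Of the 11 members read as 5p, 2 were higher in PANC-1 (miR-548j-5p and miR-548b-5p, the latter with its call set by the filter), 6 were lower and 3 did not pass the test, with a median LFC of -0.29. Of the 13 read as 3p, 7 were higher, 3 were lower and 3 did not pass. The 7 hold miR-548a-3p and miR-548j-3p, which passed the filter only through PANC-1. The median LFC of the 13 was 1.06 (the same with miR-548a-3p at its bound), while the median over all miRNAs tested was 0.27. The 3p members that were lower were miR-548e-3p (LFC -0.53, adjusted p = 0.000785, edgeR), miR-548ar-3p (-1.08, 0.00444) and miR-548t-3p (-1.24, 0.0103), the last with the same counts as miR-548aa. MiR-548t-3p was well counted in AsPC-1 only, with 9, 15 and 5 reads in the PANC-1 controls. Under total counts as the scale, miR-548e-3p did not pass the test (LFC -0.19, adjusted p = 0.187, edgeR). On that scale, 2 of the 5p members were higher and 4 lower, with a median LFC of 0.045, and 9 of the 3p members were higher and 2 lower, with a median of 1.40, while the median over all miRNAs was 0.60. The members of an arm share sequence and are not independent, the split by arm was made after the values were seen, and it was not tested.

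**Figure D3:**
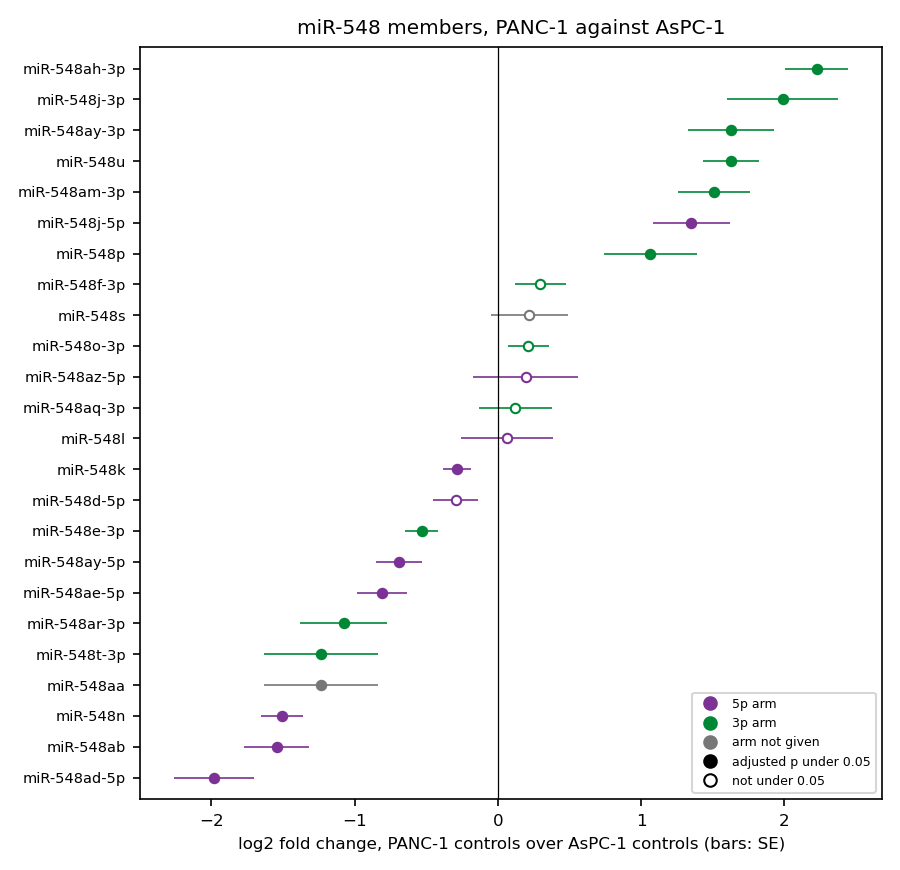
Log2 fold change of PANC-1 controls over AsPC-1 controls for 24 of the 27 tested miR-548 members, with bars of 1 standard error, coloured by arm and filled where the adjusted p was under 0.05. MiR-548v, miR-548a-3p and miR-548b-5p, with at most 3 reads in each control of 1 line, are left out, and the points run from miR-548ad-5p at -1.98 to miR-548ah-3p at 2.23. Of the points drawn, miR-548j-3p was well counted in PANC-1 only, and miR-548aa and miR-548t-3p in AsPC-1 only.

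After MYEOV knockdown in AsPC-1 cells, no member of the family was called differentially expressed (DE). Of the 24 members tested, 0 passed the threshold in edgeR's quasi-likelihood test, 0 had an unadjusted p under 0.05, and 0 passed in DESeq2, where 11.4% of the 498 miRNAs tested were DE in edgeR, 7.03% higher and 4.42% lower, and 24.7% had an unadjusted p under 0.05. The LFC ran from -0.24 to 0.32 with a median of 0.03, and the median over all miRNAs was -0.00. The groups did not overlap for 2 members, miR-548k and miR-548ae-5p, where this was so for 30.5% of all miRNAs.

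The 3 members with most reads were all below 0 in AsPC-1. MiR-548k had 154, 168 and 171 TMM-scaled CPM in the controls and 145, 137 and 150 CPM in the knockdown libraries, an LFC of -0.19 (SE 0.09, adjusted p = 0.204, edgeR). MiR-548o-3p had 136, 157 and 202 CPM in the controls and 145, 139 and 136 CPM in the knockdown libraries, an LFC of -0.24 (SE 0.12, adjusted p = 0.251, edgeR). The groups overlapped for miR-548o-3p, whose highest value, in control replicate 3, stood apart. Without that library, its LFC was -0.06 (adjusted p = 0.730, edgeR). MiR-548e-3p had an LFC of -0.15 (SE 0.11, adjusted p = 0.397, edgeR). Without control replicate 1, the library that stood apart over all miRNAs, 2 members were DE, miR-548o-3p with an LFC of -0.35 (adjusted p = 0.00626, edgeR) and miR-548k with an LFC of -0.23 (adjusted p = 0.0352, edgeR). These were 2 of 24 members tested in that fit, where 102 of the 505 miRNAs tested were DE, against 57 of 498 with all libraries.

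The highest LFC in AsPC-1 were those of 3 members of the 5p arm. MiR-548ae-5p had 17.7, 15.8 and 17.6 CPM in the controls and 18.1, 20.4 and 25.5 CPM in the knockdown libraries, an LFC of 0.32 (SE 0.16, adjusted p = 0.233, edgeR). MiR-548ab (LFC 0.26, adjusted p = 0.307, edgeR) and miR-548ad-5p (LFC 0.24, adjusted p = 0.444, edgeR) did not pass the test either, and their groups overlapped. Without AsPC-1 knockdown replicate 3, the LFC of miR-548ae-5p was 0.18, and without AsPC-1 control replicate 2 that of miR-548ad-5p was 0.088.

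After MYEOV knockdown in PANC-1 cells, 3 members were DE, miR-548f-3p and miR-548ah-3p upward and miR-548ab downward. They made up 12.5% of the 24 members tested, whereas 22.0% of the 551 miRNAs tested were DE, 12.7% higher and 9.26% lower. An unadjusted p under 0.05 was found for 7 members, against 35.8% of all miRNAs. The groups did not overlap for 7 members, 4 above and 3 below, against 36.7% of all. These shares were near or below the background, and the difference was not tested. The median absolute LFC was 0.30 for the members and 0.22 for all.

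MiR-548f-3p had 30.4, 33.3 and 39.6 CPM in the PANC-1 controls and 46.6, 47.1 and 47.8 CPM in the knockdown libraries, an LFC of 0.46 (SE 0.13, adjusted p = 0.0120, edgeR). MiR-548ah-3p had 24.0, 25.0 and 29.8 CPM in the controls and 32.5, 33.1 and 37.5 CPM in the knockdown libraries, an LFC of 0.40 (SE 0.14, adjusted p = 0.0414, edgeR). MiR-548ab had 9.68, 5.26 and 5.69 CPM in the controls and 3.64, 3.68 and 4.41 CPM in the knockdown libraries, an LFC of -0.80 (SE 0.29, adjusted p = 0.0495, edgeR). The groups of these 3 members did not overlap. In reads, miR-548ab had 44, 28 and 22 in the controls and 14, 14 and 20 in the knockdown libraries, so control replicate 1 held the highest value.

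These calls lay close to the threshold. Over the 6 fits that each left out 1 library, miR-548f-3p passed in 4, with an LFC from 0.37 to 0.55, miR-548ab in 2, from -0.98 to -0.48, and miR-548ah-3p in 1, from 0.33 to 0.48. Without knockdown replicate 3, 0 members were DE. Without control replicate 1, the LFC of miR-548ab was -0.48 (adjusted p = 0.328, edgeR), and miR-548j-5p was DE beside miR-548f-3p, with an LFC of -0.71 (adjusted p = 0.0224, edgeR). Without control replicate 2, only miR-548ab was DE, without knockdown replicate 1 or 2 only miR-548f-3p, and without control replicate 3 all 3 were DE together with miR-548o-3p. In DESeq2, miR-548f-3p alone was DE (adjusted p = 0.0196), and miR-548ab was given no adjusted p. With all 12 libraries in 1 edgeR fit, 0 were DE. The calls depended on the scale as well. With total counts, which lowered the LFC of all miRNAs by a median of 0.15 (a shift of -0.15), 0 members were DE upward and 3 downward, namely miR-548ab, miR-548e-3p and miR-548j-5p. No DE member changed sign, and miR-548f-3p had an LFC of 0.32 (adjusted p = 0.0736, edgeR) and miR-548ah-3p one of 0.25 (adjusted p = 0.181, edgeR). With identical rows collapsed, miR-548ab did not pass (adjusted p = 0.0505, edgeR).

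The most abundant members did not pass the test in PANC-1. MiR-548o-3p had 214, 207 and 271 CPM in the controls and 249.9, 256 and 319 CPM in the knockdown libraries, an LFC of 0.26 (SE 0.10, adjusted p = 0.0725, edgeR), and the groups overlapped. Its LFC was 0.14 (adjusted p = 0.447, edgeR) without knockdown replicate 3 and 0.37 (adjusted p = 0.00409, edgeR) without control replicate 3. MiR-548k had 167, 164 and 157 CPM in the controls and 143, 156 and 162 CPM in the knockdown libraries, an LFC of -0.08 (SE 0.09, adjusted p = 0.565, edgeR). MiR-548e-3p had 64.3, 64.1 and 59.5 CPM in the controls and 52.1, 48.7 and 56.0 CPM in the knockdown libraries, an LFC of -0.26 (SE 0.12, adjusted p = 0.104, edgeR), with no overlap of the groups. The largest LFC beside that of miR-548ab belonged to members with few reads, miR-548s (LFC 0.67, SE 0.27, adjusted p = 0.0746, edgeR) and miR-548az-5p (LFC 0.54, SE 0.32, adjusted p = 0.230, edgeR).

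By arm, 8 of the 11 members read as 5p had an LFC below 0 in PANC-1, with a median of -0.30, and 10 of the 12 read as 3p had an LFC above 0, with a median of 0.22, while the median over all miRNAs was 0.03. In AsPC-1, 8 of 10 members of the 5p arm lay above 0, with a median of 0.10, and 5 of 11 of the 3p arm, with a median of -0.00. Few of these values passed the test, 1 of the 5p members and 2 of the 3p members in PANC-1 and 0 in AsPC-1. With total counts as the scale, 9 of the 11 5p members (median -0.44) and 4 of the 12 3p members (median 0.074) lay below 0 in PANC-1, while the median over all miRNAs was -0.12. As between the lines, this split was made after the values were seen and was not tested, and the control libraries enter both kinds of comparison.

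**Figure D4:**
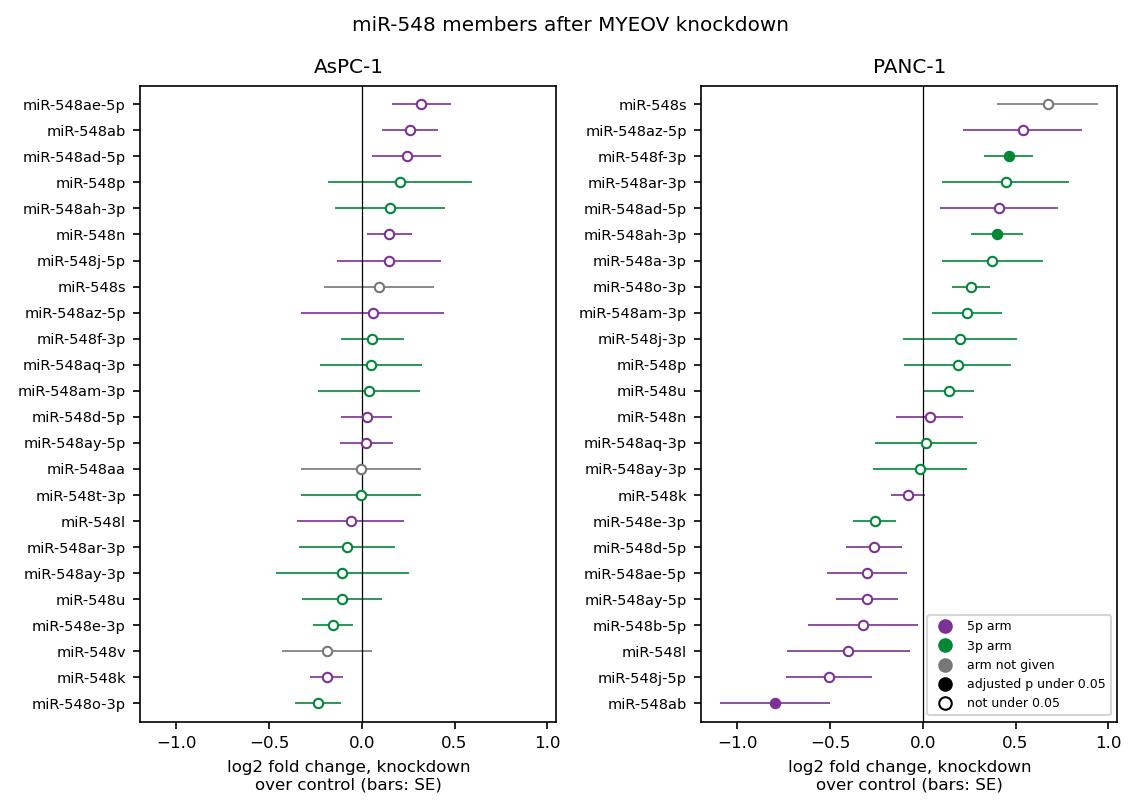
Log2 fold change of MYEOV knockdown over control for the 24 tested miR-548 members of each line, with bars of 1 standard error, coloured by arm and filled where the adjusted p was under 0.05. In AsPC-1 (left) the points lie between -0.24 and 0.32 and none is filled, and in PANC-1 (right) 3 points are filled.

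A difference in the knockdown effect from line to line was tested as an interaction term in 1 edgeR fit over all 12 libraries. Of the 27 members tested, 0 passed the threshold, where 0.308% of the 650 miRNAs tested did, and 4 had an unadjusted p under 0.05, against 11.4% of all. The 27 hold miR-548v, with 0 reads in all 6 PANC-1 libraries, and miR-548a-3p, with 4 reads in all 6 AsPC-1 libraries. For these, a knockdown effect could not be measured in 1 of the lines, and miR-548a-3p is 1 of the 4. No other tool was run for the interaction. The smallest p was that of miR-548o-3p, whose LFC was higher in PANC-1 than in AsPC-1 by 0.59 (SE 0.17, adjusted p = 0.104, edgeR). Without AsPC-1 control replicate 1, this difference was 0.71 (adjusted p = 8.23e-05, edgeR), without AsPC-1 control replicate 2 it was 0.67 (adjusted p = 0.0336, edgeR), and without PANC-1 control replicate 3 it was 0.70 (adjusted p = 0.0128, edgeR). In the other 9 of the 12 fits that each left out 1 library, it did not pass, and it was lowest, at 0.42 (adjusted p = 0.316, edgeR), without AsPC-1 control replicate 3. It was 0.36 with total counts as the scale (adjusted p = 0.347, edgeR). Without AsPC-1 control replicate 1, miR-548f-3p passed as well, with a difference of 0.66 (adjusted p = 0.0400, edgeR). In that fit, 25 of the 665 miRNAs tested passed. MiR-548ab, with opposite signs in the lines, differed by -0.96 (SE 0.33, adjusted p = 0.177, edgeR), and by -0.63 (adjusted p = 0.443, edgeR) without PANC-1 control replicate 1.

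Other miRNAs that derive from transposons were set beside the family. The list of others from MADE1 held miR-570, miR-579 and miR-603, of which miR-603 had no read listed. After MYEOV knockdown, 0 of the 3 mature miRNAs of this list that were tested in AsPC-1 and 0 of the 2 in PANC-1 were DE in edgeR, and none had an unadjusted p under 0.05. Between the lines, all 3 were lower in PANC-1, with LFC of -1.27 for miR-579-5p and -0.90 for miR-579-3p, where 36.0% of all miRNAs tested were lower. MiR-570-3p had a mean of 2.85 CPM in AsPC-1 and 1.19 CPM in PANC-1, and it did not pass the filter in the PANC-1 fit. Its call was in part set by that filter, and no LFC is given for it. The list from L2, an older element that moved through RNA, held 9 tested miRNAs. In AsPC-1, 0 of them were DE, with 0 at an unadjusted p under 0.05. In PANC-1, miR-151a-3p was higher (LFC 0.27, adjusted p = 0.0388, edgeR) and miR-421 was lower (LFC -0.37, adjusted p = 0.0180, edgeR), which is 2 of 9 against 22.0% of all miRNAs. Between the lines, 1 of the 9 was higher in PANC-1 and 4 were lower, whereas 82.8% of all miRNAs passed the threshold.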

How the data were processed

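Small RNA of 12 libraries was sequenced by the authors as 50-nt reads. Per the methods, the authors removed the 3′ adapter, aligned reads with Bowtie against hg19 (version not given in the sources used here), and kept perfect matches of 18 to 28 nt. The count of a mature miRNA is its commonest sequence plus those that start at the same base. Raw read counts of this kind were deposited, 1 table per library, and a miRNA not listed was given a count of 0. How reads that fit several miRNAs were assigned is not stated in the sources used here.

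Counts were tested with edgeR 4.0.16 (R 4.3.3; quasi-likelihood F test, two-sided, TMM factors, filterByExpr with a minimum count of 10, no replicate block), in each line separately, between the controls of the lines, and as an interaction over all libraries. TMM factors were 0.978 to 1.05 in AsPC-1, 0.920 to 1.08 in PANC-1, 0.878 to 1.17 between the lines and 0.830 to 1.24 over all libraries. The last were also used for the TMM-scaled family total. The Benjamini-Hochberg adjustment covered every miRNA that entered a fit, with a threshold of 0.05. SE is the absolute LFC divided by the square root of F. Scripts were tested on simulated data. Alternatives were DESeq2 1.42.0 (size factors and Wald test), total counts, no filter, identical rows collapsed, a replicate block, all libraries in 1 fit, and leaving out each library.

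Named members were those DE in any comparison, in each line the 5 of highest mean CPM and the 3 of largest absolute LFC, and well-counted members with identical counts. Others were named after their values were seen. The members, the lists (other MADE1-derived and L2-derived miRNAs, and markers of epithelial, acinar, endocrine, blood, liver and muscle cells) and the tests were chosen with earlier results of these data known.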

Additional observations from a re-analysis of the deposited data

How the results depend on the processing

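The count of DE members in AsPC-1 was 0 under every alternative that kept all libraries, and 0 to 2 when 1 library was left out, with 2 without control replicate 1. In PANC-1, where 3 members were DE, it was 1 with the DESeq2 Wald test, 0 with all 12 libraries in 1 fit, 2 with no filter (miR-548f-3p and miR-548av-3p, which had 1 to 10 reads per library in PANC-1), 2 with identical rows collapsed (miR-548ab lost) and 0 to 4 when 1 library was left out. The interaction called 0 members, 2 with no filter (miR-548o-3p and miR-548av-3p) and 0 to 2 when 1 library was left out. Between the lines, 29 of 64 members were called with no filter, where 661 of 1603 miRNAs passed. The lowest count was 19, of 27 with total counts (509 of 627 miRNAs passed) and of 26 with identical rows collapsed (515 of 623). When 1 library was left out, 20 to 21 were called. With no filter, 90 of 1521 miRNAs were DE in PANC-1 and 10 of 1733 passed in the interaction, with 61 and 67 members tested. The LFC of miR-548k between the lines reversed to 0.055 under total count scaling. Under a replicate block, 0 members were DE in AsPC-1, 4 in PANC-1, with miR-548o-3p added (LFC 0.26, adjusted p = 0.0126, edgeR), 23 between the lines and 0 in the interaction. The block took the DE miRNAs of AsPC-1 from 57 to 29 and those of PANC-1 from 121 to 153. Between the lines, it took the miRNAs that passed from 519 to 537. Libraries with the same number deviated from the group means with correlations of -0.155, -0.121 and 0.128 for AsPC-1 pairs and 0.0509, 0.0290 and 0.139 for PANC-1 pairs, so these libraries were taken to share only a number.

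The family total of the AsPC-1 control, AsPC-1 knockdown, PANC-1 control and PANC-1 knockdown groups was 756, 663, 644 and 680 CPM with TMM scaling, and 480.0, 462, 527 and 474 CPM without miR-548o-3p. Without 1 library, it ranged from 636 to 649.7, 594 to 609, 753 to 785 and 719 to 743 CPM. With identical rows counted once, it was 639, 596, 765 and 733 CPM. The 39 members that were not well counted hold 1.78% of the reads of the family, and whether depth limits them was not tested. The causes of these shifts were not tested.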
